A study of Curvularia clavata with 15 samples.

Results

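This comparison set wild type (WT) mycelia of Curvularia clavata strain J1 grown on lignosulfonate against WT mycelia grown on glucose. It used 6 of the 15 RNA-seq libraries of the study, chosen by their labels: 3 from Vogel's minimal medium with 2% lignosulfonate and 0.25% glucose, and 3 from the same medium with 2% glucose. All cultures were 100 mL, shaken at 200 rpm and 30 °C, and collected on day 4. The other 9 libraries came from mutants on the lignosulfonate medium, 3 each of Δtah-1, Δrpn-4 and ΔCclaeA, and here they served to estimate the spread and to give levels beside those of WT. The lignosulfonate medium also held less glucose, so the effects of the lignin substrate and of the lower glucose cannot be told apart. The labels give neither the glucose left at collection nor whether the 3 samples of a medium were separate cultures.

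Curvularia clavata is a filamentous ascomycete fungus. Lignin is an aromatic polymer of plant cell walls, and lignosulfonate is a water-soluble sulfonated form of it that is released in wood pulping. Fungi attack lignin with secreted oxidative enzymes, among them laccases, which are multicopper oxidases that take electrons from phenols and pass them to oxygen. In many filamentous fungi glucose represses genes for the use of other carbon sources, a response known as carbon catabolite repression. The question behind the comparison, as the study's design puts it, was how WT transcription responds to lignosulfonate and to glucose.

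Each library listed 10170 gene IDs with 1 FPKM value each. FPKM is the number of fragments divided by the transcript's length and the number of fragments mapped in that library, and so gives a transcript's level relative to its own library. In such bulk samples, fewer cells of a type and less RNA per cell cannot be told apart. The files pair no ID with a gene name, so IDs are given as deposited, no laccase or catabolic gene is named, and the mycelium label was not checked against marker genes. An ID was tested if it had at least 1 FPKM in at least 3 of the 15 libraries, which held for 9265 IDs.

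The libraries of a medium were alike, and the media were far apart. On the log2(FPKM + 1) scale, Pearson's r across the tested IDs ran from 0.976 to 0.989 within lignosulfonate, from 0.975 to 0.987 within glucose and from 0.636 to 0.679 between the media; these are correlations across genes, which are not independent replicates. The SD of an ID over the 3 libraries of a medium had a median of 0.16 log2 units on lignosulfonate and 0.21 on glucose, and it was larger on glucose for 65.3% of the tested IDs. A range of 4-fold or more among the 3 libraries was seen for 42 IDs on lignosulfonate and for 78 on glucose. By these correlations no library stood apart from the others of its medium. The FPKM sums were 919697, 948472 and 875068 in the lignosulfonate libraries. They varied more in the glucose libraries, at 1041598, 1186753 and 928876.

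As deposited, more gene IDs were detected on lignosulfonate. At least 1 FPKM was reached by 9043, 9028 and 9036 IDs in the lignosulfonate libraries and by 8533, 8543 and 8528 IDs in the glucose libraries. The groups did not overlap, and the difference of 501 IDs had p = 0.1 (exact permutation test, two-sided), the smallest p that 3 libraries against 3 allow. IDs above 0 numbered 9558, 9521 and 9548 in the lignosulfonate libraries and 9313, 9262 and 9334 in the glucose libraries. That difference was smaller, 239 IDs (exact permutation test, two-sided, p = 0.1). Relative depth, estimated from the steps of low values, was 1.01, 0.945 and 1.18 in the lignosulfonate libraries and 0.887 and 0.998 in glucose replicates 1 and 3. For glucose replicate 2 it was not settled, at 0.705 or 1.38 by the range of values used. The part of depth in these differences was not tested. In all 3 libraries of a medium, 8917 IDs reached 1 FPKM on lignosulfonate and 8329 on glucose, and 8185 did so in all 6. There were 421 IDs at 1 FPKM or more in every lignosulfonate library and under 1 FPKM in every glucose library, of which 50 were listed at 0 in all glucose libraries. The opposite pattern was held by 89 IDs, of which 15 were listed at 0 in all lignosulfonate libraries.

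The whole distribution of fold changes was wide and lay slightly above 0. As deposited, the log2 fold changes (lignosulfonate over glucose) had a median of 0.17, and the middle 90% of IDs lay between -2.01 and 3.44. This offset depends on how libraries are scaled. After median-of-ratios scaling, which divides each library by its median ratio to the geometric mean of all libraries, the median was 0.003, and the middle 90% lay between -2.16 and 3.22. The size factors were 1.303, 1.28 and 1.18 for the WT lignosulfonate libraries and 1.11, 1.12 and 1.08 for the glucose libraries. Scaling thus lowered lignosulfonate values more, and the counts of IDs at 1 FPKM given above were made as deposited only. In the mutants the size factors were 0.807, 1.21 and 0.87 for Δtah-1, 0.683, 0.696 and 0.683 for Δrpn-4, and 1.14, 1.16 and 1.18 for ΔCclaeA. The upper tail was longer than the lower one under both scalings.

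An ID was called at an adjusted p under 0.05 (limma, Benjamini-Hochberg over all tested IDs) with a change of at least 2-fold. Of the tested IDs, 2405 (26%) were called higher on lignosulfonate and 1355 (14.6%) lower, together 40.6%. After median-of-ratios scaling 2104 (22.7%) were called higher and 1673 (18.1%) lower, together 40.8%. The share of higher calls among all calls was thus 63.96% as deposited and 55.7% after scaling. With the sums of all libraries made equal (TPM) instead, the balance moved the other way, with 2778 called higher and 1088 lower. Of the calls as deposited, 2103 higher and 1353 lower ones were also called after scaling, and none changed direction. The 301 IDs called higher as deposited but not after scaling were small changes, with a median log2 fold change of 1.08 and a maximum of 1.23. The 320 IDs called lower after scaling only had a median log2 fold change of -0.91 as deposited.

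Changes of large size were more often increases. Calls of at least 4-fold numbered 1171 higher (12.6% of tested IDs) and 468 lower (5.05%). At 16-fold the numbers were 331 higher (3.57%) and 125 lower (1.35%), and with a pseudocount of 0.1 they were 524 higher and 156 lower. At 64-fold there were 108 higher (1.17%) and 53 lower (0.572%). At 256-fold they were nearly equal, 22 higher (0.237%) and 20 lower (0.216%). After median-of-ratios scaling, 289 IDs were called at least 16-fold higher (3.12%) and 131 at least 16-fold lower (1.42%), and at 256-fold the balance turned, with 16 higher (0.173%) and 21 lower (0.227%).

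**Figure D1:**
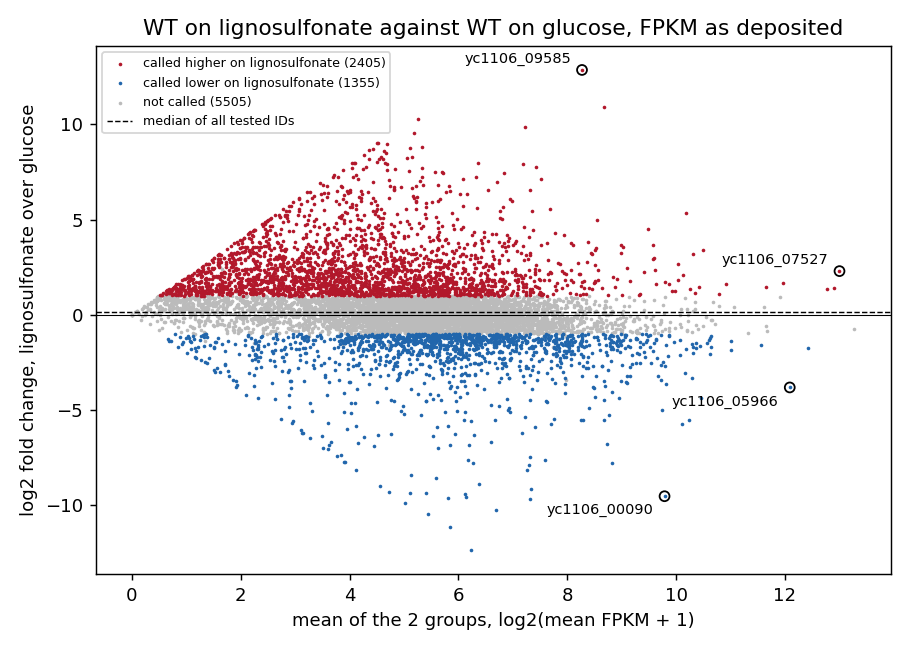
Log2 fold change, WT on lignosulfonate over WT on glucose, of each of the 9265 tested IDs against its level, given as the mean of the log2(mean FPKM + 1) values of the media. Red points are the 2405 IDs called higher on lignosulfonate, blue points the 1355 called lower and grey points the 5505 not called; the dashed line is the median over tested IDs, 0.17, and the 4 circled IDs are those described by name.

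The direction of change went with the expression level of the ID. The tested IDs were divided into 10 bins of equal size by their mean log2(FPKM + 1) over the 6 WT libraries. In the lowest 3 bins, 43.6%, 50.2% and 40.2% of IDs were called higher and 7.55%, 10.4% and 10.03% lower. In the highest bin the order was turned round, with 12.7% called higher and 32.0% called lower. Between them the shares crossed: the fifth bin had 21.3% higher and 14.1% lower, and the eighth had 14.3% higher and 14.5% lower.

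The median log2 fold change went the same way, with 1.01 in the second bin and -0.55 in the highest. In that second bin the median of the group means was 8.85 FPKM on lignosulfonate and 3.87 on glucose, and in the highest bin 239 FPKM on lignosulfonate and 343 on glucose. After median-of-ratios scaling the second bin had 44.4% called higher and 11.6% lower, and the highest 10.6% higher and 39.5% lower. Most libraries in the filter on low values were lignosulfonate ones, mutants included. With the filter and the fit on the 6 WT libraries alone, the lowest bin had 51.4% called higher and 9.88% lower, the second 48.0% higher and 9.23% lower, and the highest 12.9% higher and 32.0% lower. With a pseudocount of 0.1 in place of 1, the lowest bin had 59.1% called higher and 9.60% lower, and the second 53.1% higher and 10.9% lower, so which of the 2 lowest bins had more higher calls depended on these settings. Of all tested IDs, 164 would not have passed the filter over the 6 WT libraries alone, and 14 of these were called higher and 1 lower.

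**Figure D2:**
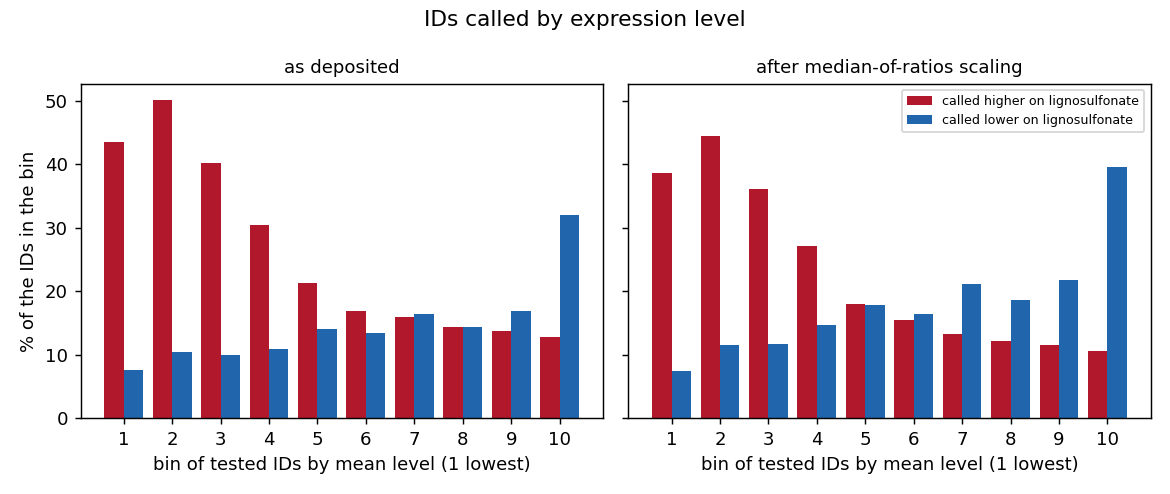
Percentage of tested IDs called higher (red) or lower (blue) on lignosulfonate in each bin of expression level, from the lowest (1) to the highest (10), as deposited at the left and after median-of-ratios scaling at the right. As deposited, higher calls range from 50.2% in the second bin to 12.7% in the highest, and lower calls from 7.55% in the lowest bin to 32.0% in the highest.

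Counted as a share of all FPKM, about the same part of the transcript pool was held by the called IDs in either medium, but by different IDs. The 2405 IDs called higher held 42.9%, 41.9% and 44.2% of the FPKM sum in the lignosulfonate libraries, against 6.69%, 6.20% and 6.998% in the glucose libraries. The 1355 IDs called lower held 10.9%, 11.7% and 10.2% in the lignosulfonate libraries, against 49.2%, 50.6% and 47.0% in the glucose libraries. The 5505 tested IDs that were not called held 46.1% ± 0.411 on lignosulfonate and 44.4% ± 1.43 on glucose (SD, n = 3 each). The classes were chosen by these same values, so the shares of the first 2 describe the size of the change and test nothing. In the mutants on lignosulfonate the IDs called higher in WT held 43.3% ± 1.57 of the sum in Δtah-1, 50.1% ± 0.314 in Δrpn-4 and 41.8% ± 0.451 in ΔCclaeA, and those called lower held 12.2% ± 0.998 in Δtah-1, 9.98% ± 0.222 in Δrpn-4 and 10.5% ± 0.015 in ΔCclaeA (SD, n = 3 each).

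**Figure D3:**
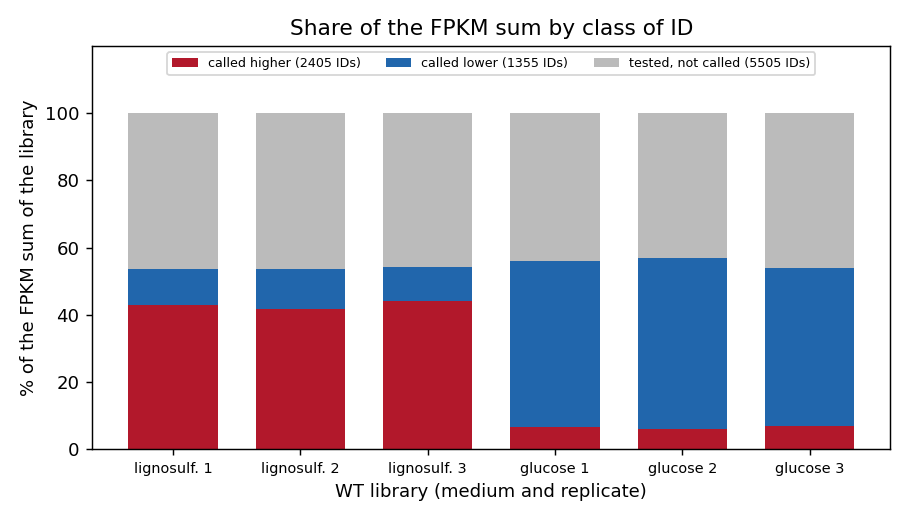
Share of the FPKM sum of each WT library, in percent, held by IDs called higher on lignosulfonate (red, 2405 IDs), IDs called lower (blue, 1355 IDs) and tested IDs not called (grey, 5505 IDs). The red share lies between 41.9% and 44.2% in the lignosulfonate libraries and between 6.20% and 6.998% in the glucose libraries, and the blue share does the opposite.

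The most abundant transcripts were largely exchanged. Of the 10 IDs highest in mean FPKM on lignosulfonate, 1 was also among the 10 highest on glucose, and of the 100 highest 29 were shared. Among the 100 highest on lignosulfonate, 63 were called higher there and 8 lower. Among the 100 highest on glucose, 77 were called lower on lignosulfonate and 5 higher. After median-of-ratios scaling these counts were 59, 11, 81 and 5. Ranking IDs by their level in 1 medium favours the direction towards that medium. The 10 most abundant IDs of each library held 11.9% ± 0.152 of the FPKM sum on lignosulfonate and 9.95% ± 0.505 on glucose (SD, n = 3 each; exact permutation test, two-sided, p = 0.1, the smallest possible). For the 100 most abundant the difference ran the other way, 28.3% ± 0.705 on lignosulfonate and 30.4% ± 1.18 on glucose (exact permutation test, two-sided, p = 0.1).

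The 2 IDs with the largest gain in mean FPKM after scaling were yc1106_09585 and yc1106_07527. yc1106_09585 had 27146, 23957 and 25448 FPKM in the lignosulfonate libraries, against 0.9, 2.84 and 4.49 FPKM in the glucose libraries. It was the most abundant ID on lignosulfonate, where it made up 2.95%, 2.53% and 2.91% of the FPKM sum, and it ranked 7974 of 10170 on glucose. The log2 fold change was 12.86 (SE 0.34, adjusted p from limma = 8.25e-14), and 12.63 after scaling. This p, like those of the IDs below, draws on the mutant libraries for the spread. With the 6 WT libraries alone the SE was 0.35 and the adjusted p from limma was larger, 2.02e-08. The 9 mutant libraries on lignosulfonate also had high values, at 4929 ± 2567 FPKM in Δtah-1, 12590 ± 379 in Δrpn-4 and 24779 ± 1495 in ΔCclaeA (SD, n = 3 each). Mutant levels of this ID and of the single IDs below are as deposited. Scaling would raise the levels of Δrpn-4 most beside those of WT on lignosulfonate, since its size factors were the smallest. Replicates 1 and 3 of Δtah-1 also had size factors well under those of WT on lignosulfonate, and ΔCclaeA had slightly smaller ones.

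yc1106_07527 ranked second on lignosulfonate and already stood high on glucose, at rank 21. It had 16111, 19139 and 18170 FPKM in the lignosulfonate libraries, against 5078, 3867 and 2412 FPKM in the glucose libraries, with no overlap. The log2 fold change was 2.30 (SE 0.28, adjusted p from limma = 2.84e-06), and 2.11 after scaling. With the 6 WT libraries alone this ID had an SE of 0.30 and an adjusted p from limma of 0.000186. In the mutants on lignosulfonate it had 1126 ± 194 FPKM in Δtah-1, 64455 ± 1925 in Δrpn-4 and 444 ± 150 in ΔCclaeA (SD, n = 3 each), so that Δtah-1 and ΔCclaeA lay below WT on glucose and Δrpn-4 above WT on lignosulfonate. The 2 leading gains differed in kind: yc1106_09585 had a few FPKM on glucose, whereas yc1106_07527 was abundant in both media. The next ID in number, yc1106_07528, was also called higher, with a mean of 1582 FPKM on lignosulfonate and 164 on glucose (log2 fold change 3.26), whereas yc1106_07526 before it was called lower, with 275 FPKM on lignosulfonate and 857 on glucose (log2 fold change -1.62). These neighbours were chosen after their values were seen. Beside the other named IDs, yc1106_09586 was called lower, against the direction of yc1106_09585, and no other neighbour was called as deposited.

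The 2 IDs with the largest loss were yc1106_00090 and yc1106_05966, the first and second most abundant IDs on glucose. yc1106_00090 had 36.9, 41.7 and 16.4 FPKM in the lignosulfonate libraries, against 23240, 34364 and 14227 FPKM in the glucose libraries, or -9.53 as log2 fold change (SE 0.36, adjusted p from limma = 3.65e-12), and -9.70 after scaling. With the 6 WT libraries alone the SE was 0.42 and the adjusted p from limma 3.16e-07. The glucose libraries differed among themselves by more than 2-fold, which is small beside the gap between the media. On lignosulfonate it ranked 5225, and the mutants had 31.9 ± 9.14 FPKM in Δtah-1, 15.3 ± 5.52 in Δrpn-4 and 27.5 ± 3.65 in ΔCclaeA (SD, n = 3 each).

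yc1106_05966 had 1241, 1207 and 1036 FPKM in the lignosulfonate libraries, against 16568, 17189 and 15258 FPKM in the glucose libraries. The replicates of each medium were close, and the log2 fold change was -3.82 (SE 0.13, adjusted p from limma = 1.14e-12), and -3.999 after scaling. With the 6 WT libraries alone the SE was 0.20 and the adjusted p from limma 5.95e-07. yc1106_05966 remained an abundant transcript on lignosulfonate, at rank 72. As deposited, the mutant libraries lay lower still, at 735 ± 44.9 FPKM in Δtah-1, 507 ± 6.68 in Δrpn-4 and 440 ± 17.7 in ΔCclaeA (SD, n = 3 each).

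**Figure D4:**
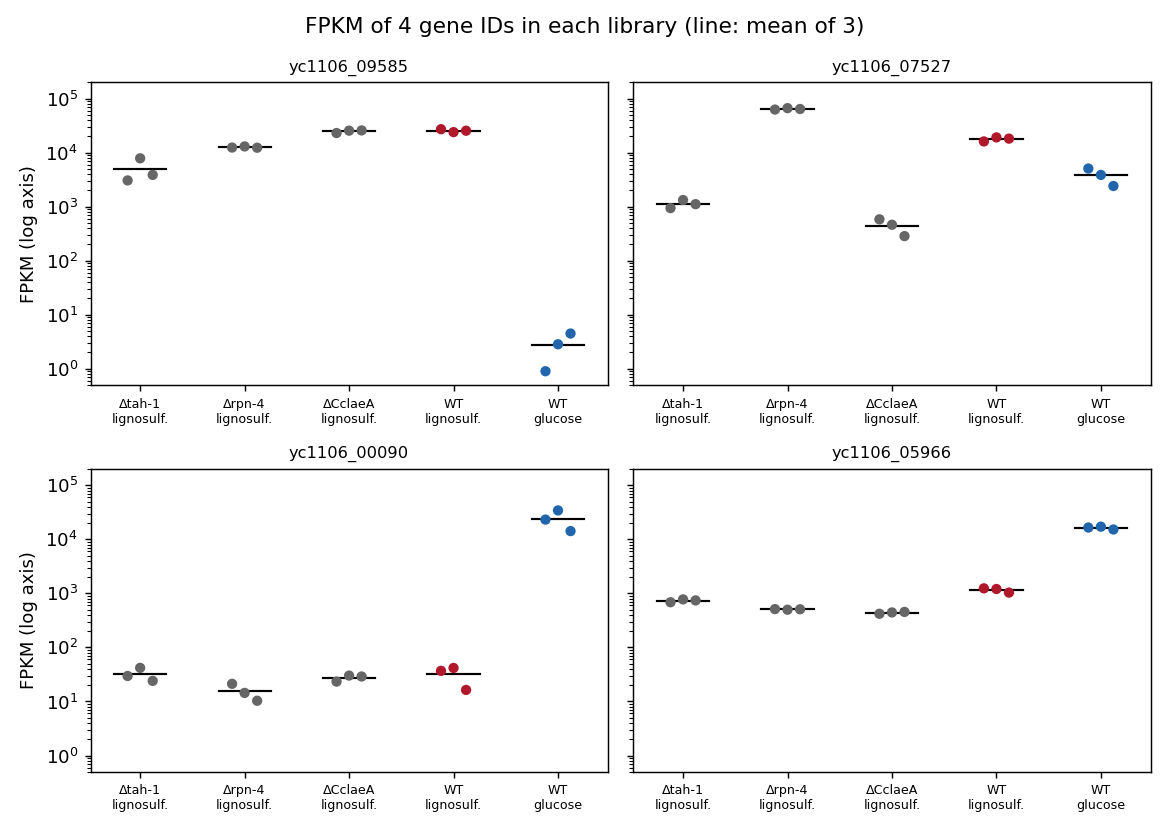
FPKM on a log axis of the 4 IDs in each of the 15 libraries; each point is 1 library and each line the mean of 3. From left to right the groups are Δtah-1, Δrpn-4, ΔCclaeA and WT on lignosulfonate (WT in red) and WT on glucose (blue). For yc1106_09585 all lignosulfonate libraries lie above all glucose libraries, for yc1106_00090 and yc1106_05966 all lie below them, and for yc1106_07527 the Δtah-1 and ΔCclaeA libraries lie below WT on glucose and the Δrpn-4 libraries above WT on lignosulfonate.

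The levels of the strongly changed IDs in the mutants were on the lignosulfonate side of the WT difference. The 331 IDs called at least 16-fold higher had group means with a median of 132 FPKM in Δtah-1, 73.2 in Δrpn-4, 91.9 in ΔCclaeA and 134 in WT on lignosulfonate, and 1.56 in WT on glucose. After median-of-ratios scaling these medians were 135, 107, 79.4, 107 and 1.41. The 125 IDs called at least 16-fold lower had medians of 4.52 FPKM in Δtah-1, 3.08 in Δrpn-4, 4.26 in ΔCclaeA and 4.72 in WT on lignosulfonate, and 461 in WT on glucose. After scaling these medians were 4.77, 4.48, 3.69, 3.78 and 418. The order of the mutants and WT on lignosulfonate thus depended on the scaling. All mutants were grown on the lignosulfonate medium, the IDs were chosen on the WT libraries, and no test was made of these medians.

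Called IDs tended to have neighbouring numbers. No source used here says whether the numbering follows the genome. After an ID called higher, the next tested ID was also called higher in 39.98% of cases (878 of 2196), beside 25.5% for all IDs that follow a tested one. After an ID called lower, the next was called lower in 23.9% of cases (305 of 1274), beside 14.7%. With median-of-ratios scaling the shares were 38.4% beside 22.2% for higher calls and 26.7% beside 18.2% for lower calls. Along the numbering as a whole the calls were spread out: in 20 windows of 500 IDs, leaving out the last 170 IDs, between 20.7% and 33.6% of tested IDs were called higher and between 10.9% and 18.5% lower.

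There were 29 runs of 5 or more consecutive IDs called in one direction, 26 of them higher with 155 IDs and 3 lower with 17 IDs. After scaling there were 20 runs of higher IDs and 5 of lower ones, with 116 and 28 IDs. The longest run of higher calls held 9 IDs, yc1106_02302 to yc1106_02310, and all 9 were called after scaling too. The log2 fold changes ran from 1.73 to 3.47 (SE from 0.17 to 0.37, largest adjusted p from limma = 0.000711), on a scale that understates the change of IDs near 0 on glucose. yc1106_02307, for example, had means of 5.77 FPKM on lignosulfonate and 0.05 on glucose, for a log2 fold change of 2.68. yc1106_02304, farther from 0 on glucose, had means of 9.85 FPKM on lignosulfonate and 2.32 on glucose, for 1.73. The median over the 9 IDs was 19.8, 18.5 and 19.0 FPKM in the lignosulfonate libraries, against 2.59, 2.63 and 2.75 FPKM in the glucose libraries. The media did not overlap for any of the 9 IDs, beside 42.8% of all tested IDs with every lignosulfonate library above every glucose library. Of the 3760 IDs called in either direction, 3711 had no overlap, so this follows largely from the choice of called IDs. The group means of single IDs ran from 5.77 to 101.2 FPKM on lignosulfonate and from 0.05 to 23.2 on glucose.

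The longest run of lower calls held the 7 IDs yc1106_06668 to yc1106_06674, again all called after scaling. Its IDs were close to off on lignosulfonate: the median over the 7 was 0.06, 0.1 and 0.13 FPKM in the lignosulfonate libraries, against 126, 170 and 241 FPKM in the glucose libraries. The media did not overlap for any of the 7, beside 30.2% of all tested IDs with every lignosulfonate library below every glucose library. Here too, the lack of overlap follows largely from the choice of called IDs. The log2 fold changes ran from -12.37 to -3.56 (SE from 0.13 to 0.25, largest adjusted p from limma = 6.22e-11). Levels on glucose differed widely within the run, with group means from 19.4 to 5510 FPKM, while no ID of the run had a mean above 0.863 FPKM on lignosulfonate. At its centre, yc1106_06671 had 0.06, 0 and 0 FPKM in the lignosulfonate libraries, against 4293, 5108 and 7127 FPKM in the glucose libraries. yc1106_06672 was listed at 0 in all 3 lignosulfonate libraries, against 60.7, 74.1 and 88.6 FPKM in the glucose libraries.

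**Figure D5:**
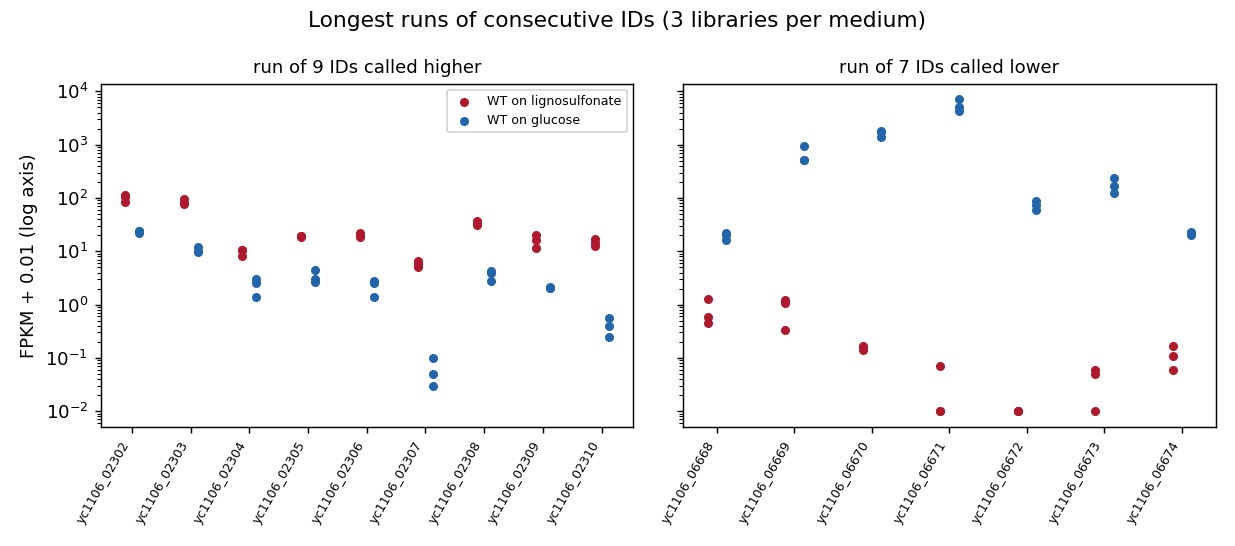
FPKM + 0.01 on a log axis of each ID in the longest run called higher (left, 9 IDs) and the longest run called lower (right, 7 IDs), in ID order; each point is 1 WT library, red on lignosulfonate and blue on glucose. In neither run do the media overlap for any ID, and all lignosulfonate points of the right panel lie under 2 FPKM.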

How the data were processed

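Total RNA was taken up in TRIzol and purified on columns, per the labels' protocols. The authors deposited 1 FPKM value per gene ID and library, rounded to 2 decimals; the headers of the 6 WT files name FPKM and those of the 9 mutant files name no unit. The submitters' processing notes list, with no role, DESeq2, RSEM 1.3.3, HISAT2 2.1.0 and fastp 0.19.5. The genome build is stated in none of the sources used here.

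FPKM carries no read number. From the steps of low values (0.08 to 0.3 FPKM), the relative depth of 5 WT libraries ran from 0.887 to 1.18 of their mean. For glucose replicate 2 it came out at 0.705, or 1.38 with values up to 0.6 FPKM. Of the 15 pairs among all 6 WT libraries, 13 lay within 0.05 log2 units of the fit, or 12 with the wider range.

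Group means of log2(FPKM + 1) were estimated from all 15 libraries by limma 3.58.1 under R 4.3.3 (trend and robust options) and the WT contrast was taken. The scale understates changes of low IDs. The fit was tested on simulated data. The spread behind the p-values is that between these samples and may be technical. Python 3.11.15, NumPy 2.4.6, pandas 2.3.3, SciPy 1.17.1 and matplotlib 3.10.9 were used. Named IDs were those with the 2 largest gains and the 2 largest losses of mean scaled FPKM among IDs called alike under both scalings, and the longest run in each direction. The comparison, rules and tests were chosen with earlier results of these data known. Alternatives were another pseudocount, no filter, equal sums (TPM), median of ratios, the 6 WT libraries alone, a replicate block, other minimum fold or run lengths and leaving out each replicate. Gene lists were not used, since no ID had a name.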

Additional observations from a re-analysis of the deposited data

How the results depend on the processing

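Of the results recomputed under each setting, none was reversed, but the 256-fold balance, recomputed only with median of ratios, was 22 higher and 20 lower as deposited and 16 higher and 21 lower after scaling. The 4 named IDs kept their direction and their call under all 12 alternatives run for each. Without a minimum fold change, 6428 IDs were called, 3767 higher and 2661 lower. With a pseudocount of 0.1, 524 IDs were called at least 16-fold higher. The median log2 fold change was 0.0029 with median of ratios and 0.3524 with sums made equal (TPM), which follows from the scaling. Runs of 4 or more held 472 IDs, and runs of 7 or more 45. Leaving out 1 replicate at a time gave 3593 to 3899 calls, 2347 to 2454 of them higher and 1183 to 1458 lower; 326 to 334 at least 16-fold higher and 100 to 128 at least 16-fold lower; a median log2 fold change of 0.1427 to 0.2055; and 154 to 207 IDs in runs. With median of ratios, added after the data were seen, it gave 2066 to 2144 higher and 1520 to 1763 lower.

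The replicate block gave 3765 calls, of which 3759 were shared in direction with the 3760 without it. Deviations of same-numbered samples correlated at 0.01, 0.44 and 0.51 across IDs, and lignosulfonate replicate 1 correlated best with another number, at 0.10. For replicates 2 and 3 the crossed pairs correlated at -0.53 and -0.40. Deviations were taken from the mean of the 3 libraries of a medium and sum to 0. The crossed values are therefore linked to the same-numbered ones and add no separate evidence. The samples were treated as unpaired because no label says that a number is shared by samples of different groups. Whether replicates 2 and 3 shared a batch was not tested. FPKM without read numbers gives no counting interval, and at values near 0 a fold change depends on the pseudocount.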

Other observations

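Among the 905 IDs below the filter, 2 reached 10 FPKM or more in a lignosulfonate library and none did so in a glucose library. The highest single value among them was 129 FPKM, in a lignosulfonate library.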
